A study of Mus musculus with 6 samples.

Results

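Neuropeptide precursor transcripts were examined in 6 bulk RNA-seq libraries of mouse optic nerve. The genes were Avp, Oxt, Trh, Sst, Npy, Penk, Pdyn, Cartpt, Gal and Tac1, that is 10 of the 25755 genes in the deposited table, found there by their symbols. They were selected on their normalized values in these same libraries, which were known when the list was drawn up, as was the contrast of crushed with sham nerves, so their levels are given as a description and their differences carry no test of their own. All mice were Nf1flox/flox; hGFAP-Cre, in which Cre recombinase under the human GFAP promoter removes both copies of the neurofibromatosis gene Nf1 from neuroglial progenitors and their descendants, and the sham group carried this deletion too. Sham mice 1, 2 and 3 had surgery without crush, and mice 4, 5 and 6 had bilateral optic nerve crush (ON-CR), in both groups at 6 weeks of age. Nerves were taken at 12 weeks by the study's account and at 3 months by the labels. Nothing in the labels gives the sex of a mouse, and the study used both sexes.

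Neuropeptides are made as larger precursor proteins, cut by convertases, packed into dense-core granules with granin proteins and released to act on G protein-coupled receptors. The optic nerve carries axons of retinal ganglion cells among oligodendrocytes, astrocytes and microglia, and it holds few neuronal cell bodies. The hypothalamus, which lies directly above the optic chiasm, is rich in peptide neurons: vasopressin and oxytocin neurons of the supraoptic and paraventricular nuclei project to the posterior pituitary, and neurons that make TRH or somatostatin regulate the anterior pituitary.

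The libraries held between 17414589 and 23620019 estimated reads, and 1 read was worth a normalized value of 0.885 to 1.06, so 3 reads, taken as the floor, correspond to 2.66 to 3.18. The 3 ON-CR libraries were all less deep than the sham ones. Glial transcripts were abundant in all 6: Mbp, encoding myelin basic protein, lay between 369255 and 1296440, and the astrocyte gene Gfap between 99186 and 202957. Sex-linked transcripts differed with the group, with Xist at 16.6 ± 14.4 for sham and 5065 ± 2045 for ON-CR (SD, n = 3 each) and the Y-linked gene Ddx3y at 4.19 and 0 in ON-CR mice 5 and 6, against 976 in ON-CR mouse 4 and at least 1291 in the sham mice, so surgery and sex cannot be told apart for any gene below. ON-CR mouse 4 stood apart from the other mice in having both, with Xist at 2708; whether this library holds RNA of more than 1 mouse was not tested. ON-CR mouse 5, the highest library for all 10 genes below, had the fewest estimated reads.

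Reads of all 10 neuropeptide genes were present in every library, and the mice of each group differed widely. Each of the 10 was highest in ON-CR mouse 5, whereas 20.6% of all genes were highest there, and in each the highest of the sham libraries was that of sham mouse 1. Both held for 8.33% of all genes. ON-CR mouse 4 was lowest for 7 of the 10 and for 14.2% of all genes. The exceptions were Npy, lowest in sham mouse 2, Pdyn, lowest in sham mouse 3, and Sst, lowest in ON-CR mouse 6.

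**Figure D1:**
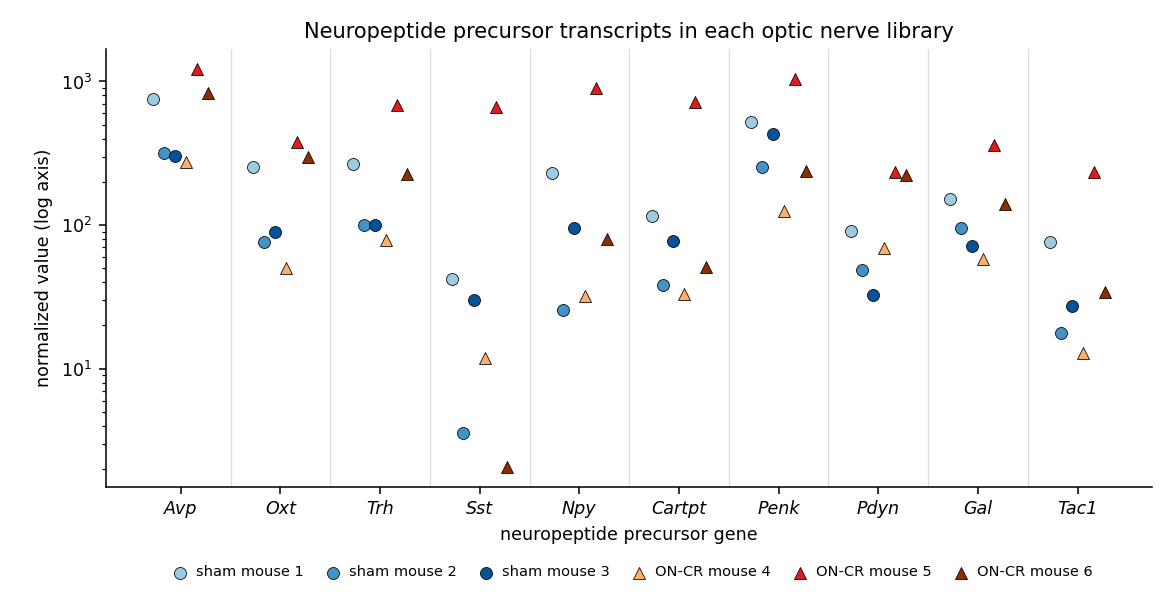
Normalized value (log axis) of the 10 neuropeptide precursor genes in each library; circles are sham mice and triangles ON-CR mice. The red triangle of ON-CR mouse 5 is the top point for all 10 genes, and the palest circle, sham mouse 1, is the top circle for each.

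Avp (chr2:130580620-130582554 of GRCm38, minus strand) encodes the precursor of vasopressin, the antidiuretic hormone, and its carrier neurophysin. Oxt (chr2:130576173-130577054, plus strand) is its neighbour and encodes the precursor of oxytocin with a closely related neurophysin. Their coding sequences, of 507 and 378 bases, were identical at 86% of the 378 aligned bases, and they share an unbroken run of 127 bases, positions 131 to 257 of the Avp and 119 to 245 of the Oxt coding sequence. The run is shown because reads that fall within it cannot be assigned to one gene, with the shared bases in capitals and 15 bases of each gene on either side, from GENCODE M21 transcripts, coding strand.
Avp: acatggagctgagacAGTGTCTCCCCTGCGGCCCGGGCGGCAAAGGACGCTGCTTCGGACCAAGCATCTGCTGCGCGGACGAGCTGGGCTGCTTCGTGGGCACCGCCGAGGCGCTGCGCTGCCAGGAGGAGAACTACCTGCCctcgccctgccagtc
Oxt: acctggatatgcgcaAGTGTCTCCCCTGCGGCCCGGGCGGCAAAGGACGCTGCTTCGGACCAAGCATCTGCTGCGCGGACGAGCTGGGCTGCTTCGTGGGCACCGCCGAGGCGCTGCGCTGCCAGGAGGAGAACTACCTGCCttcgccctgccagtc
Of all stretches of 50 bases in the Avp transcript 14.8% also occur in Oxt, and 16% of those in Oxt occur in Avp, so the levels of the pair carry that uncertainty. None of the other 8 genes shared a stretch of 50 bases with the transcripts of another gene.

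Values are given below in the order of mice 1, 2 and 3 for the sham nerves and 4, 5 and 6 for the crushed nerves. The sham nerves gave normalized Avp values of 761, 320.1 and 300.4, and the crushed nerves 274, 1219 and 828. The group means were 460.4 ± 260.2 and 774 ± 475 (SD, n = 3 each). ON-CR mouse 4 thus lay below every sham mouse and ON-CR mice 5 and 6 above them all. Oxt was at 255, 76.5 and 89.3 in the sham nerves, against 50.3, 379 and 298 in the crushed nerves. Its order over the libraries was that of Avp except that sham mice 2 and 3 changed places, and its values also overlapped between the groups. Divided by exon length (0.577 kb for Avp and 0.537 kb for Oxt), Avp exceeded Oxt in all 6 libraries, by 2.58-fold in ON-CR mouse 6 to 5.06-fold in ON-CR mouse 4. The ratio of the pair therefore varied 1.96-fold, while Avp itself varied 4.45-fold and Oxt 7.53-fold.

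Trh (chr6:92242061-92244650, minus strand) encodes the precursor of thyrotropin-releasing hormone, and Sst (chr16:23889573-23890958, minus strand) that of somatostatin, which inhibits the release of growth hormone. Trh was at 265, 100.9 and 99.5 in the sham nerves, against 78.8, 686 and 228 in the crushed nerves. Its level in ON-CR mouse 5 was 2.58-fold that of the next library, sham mouse 1. Sst gave 42.4, 3.54 and 30.1 in the sham nerves, against 12, 659 and 2.08 in the crushed nerves, from 40, 4, 32, 12, 629 and 2 estimated reads. One library thus held most of the Sst reads, at 15.5-fold the next one (95% exact conditional binomial interval 11.3 to 22, counting error only). The lowest library, ON-CR mouse 6, had only 2 reads and was under the floor, and the ratio of ON-CR mouse 5 to it was 318 with a counting interval of 87.5 to 2630. The mean of Sst was 25.3 ± 19.9 for sham and 224 ± 377 for ON-CR (SD, n = 3 each), yet its median was lower after ON-CR, 12 against 30.1.

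Npy (chr6:49822710-49829507, plus strand) encodes neuropeptide Y, a peptide of many cortical, hypothalamic and sympathetic neurons, and Cartpt (chr13:99898489-99901091, minus strand) the precursor of the CART peptides, which restrain feeding. Npy was at 229, 25.7 and 95.8 in the sham nerves, against 31.9, 894 and 80.0 in the crushed nerves. Cartpt was at 116, 38.1 and 77.9 in the sham nerves, against 32.9, 723 and 50.9 in the crushed nerves. In both genes ON-CR mice 4 and 6 fell within or below the sham range and ON-CR mouse 5 was far above it, 3.9-fold the next library for Npy and 6.25-fold for Cartpt. As for Sst, the median of the ON-CR mice was below the sham median, at 80.0 against 95.8 for Npy and 50.9 against 77.9 for Cartpt, while the mean was above it.

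Penk (chr4:4133531-4138819, minus strand) and Pdyn (chr2:129686565-129699844, minus strand) encode the precursors of the opioid peptides enkephalin and dynorphin. Exons of A830012C17Rik overlap those of Penk on the other strand, and since the strandedness of the counting is not given in the sources used here, reads of that pair could not be told apart. Penk was at 523, 256 and 431 in the sham nerves, against 126, 1046 and 239 in the crushed nerves, so that ON-CR mice 4 and 6 lay below the whole sham group. Pdyn was at 91.3, 48.7 and 32.9 in the sham nerves, against 69.8, 234 and 224 in the crushed nerves. It was the gene in which ON-CR mouse 5 stood out least, at 1.04-fold the level of ON-CR mouse 6. Its means were 57.6 ± 30.2 for sham and 176 ± 92.1 for ON-CR (SD, n = 3 each), and the groups overlapped through sham mouse 1 and ON-CR mouse 4.

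Gal (chr19:3409915-3414544, minus strand) encodes galanin, which is found in sleep-promoting preoptic neurons among others, and Tac1 (chr6:7554879-7565834, plus strand) the precursor of substance P and neurokinin A. Gal was at 153, 95.6 and 71.4 in the sham nerves, against 57.8, 361 and 140.2 in the crushed nerves. Tac1 was at 76.4, 17.7 and 27.2 in the sham nerves, against 13, 234 and 34.3 in the crushed nerves. Both had their lowest value in ON-CR mouse 4 and their highest in ON-CR mouse 5, 6.24-fold apart for Gal and 18-fold for Tac1, and the sham values lay between these.

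The spread of these genes over the 6 libraries was wide. On the log2(value + 1) scale the highest and lowest library were 3.08 apart in the median of the 10 genes, or 8.44-fold, against 1.06 for all genes and 0.79, or 1.73-fold, for the 19650 genes with a mean value of at least 10. All 10 exceeded 2 on this scale, as did 25.4% of all genes and 11.4% of those with a mean value of at least 10. Avp had the smallest spread of the 10, 2.15, which 9.61% of genes with a mean value of at least 10 reached, and Sst the largest, 7.75, which 0.198% reached. Without ON-CR mouse 5 the median spread of the 10 was 2.26. In bulk tissue, fewer cells of a type and less RNA per cell cannot be told apart.

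**Figure D2:**
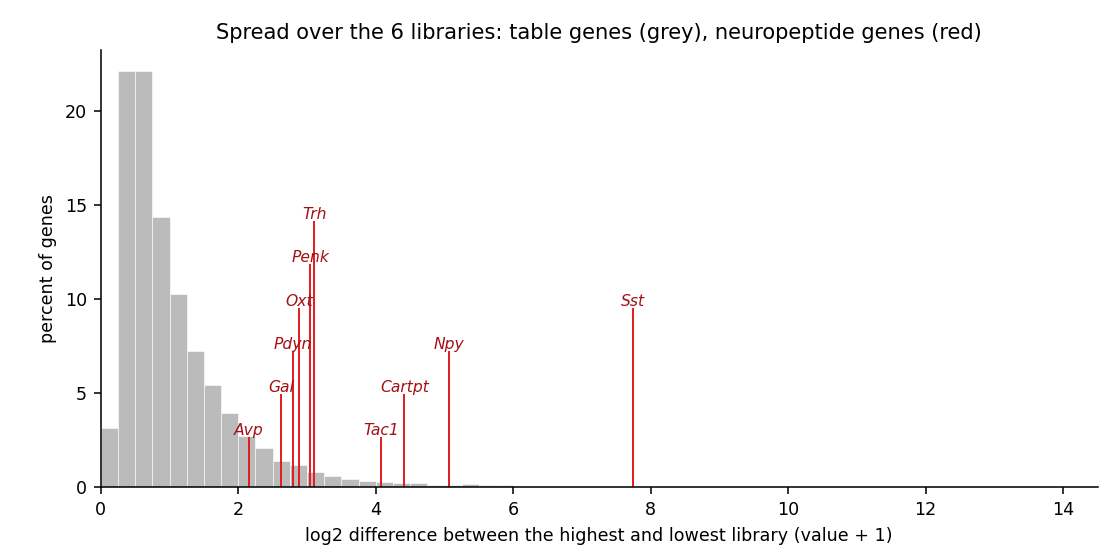
Log2 difference between the highest and the lowest of the 6 libraries, on value + 1 (x axis); grey bars give the percent of the 19650 genes with a mean value of at least 10 (y axis), and red lines mark the 10 neuropeptide genes, at heights that only separate the names. The red lines begin at 2.15 for Avp and end at 7.75 for Sst, to the right of most grey bars.

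Per kilobase of exon, Avp led in all 6 libraries and made up 27.7% of the summed value of the 10 genes in ON-CR mouse 5 and 37.1% to 52.6% in the others. Over the mean of the 6 libraries it was followed by Npy, Oxt, Penk, Gal, Trh, Sst, Cartpt, Pdyn and Tac1. This order was not the same in each library: Npy exceeded Oxt in 2 of 6 libraries, Oxt exceeded Penk in 4 of 6, and Sst exceeded Cartpt in 1 of 6, whereas Tac1 was below Pdyn in 6 of 6. In ON-CR mouse 5, Npy made up 20.7% and Sst 12% of the sum, against 3.94% to 13% and 0.105% to 2.97% in the other libraries. Oxt had its highest share, 20.2%, in ON-CR mouse 6. Trh stayed between 5.12% and 6.50% in all 6.

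**Figure D3:**
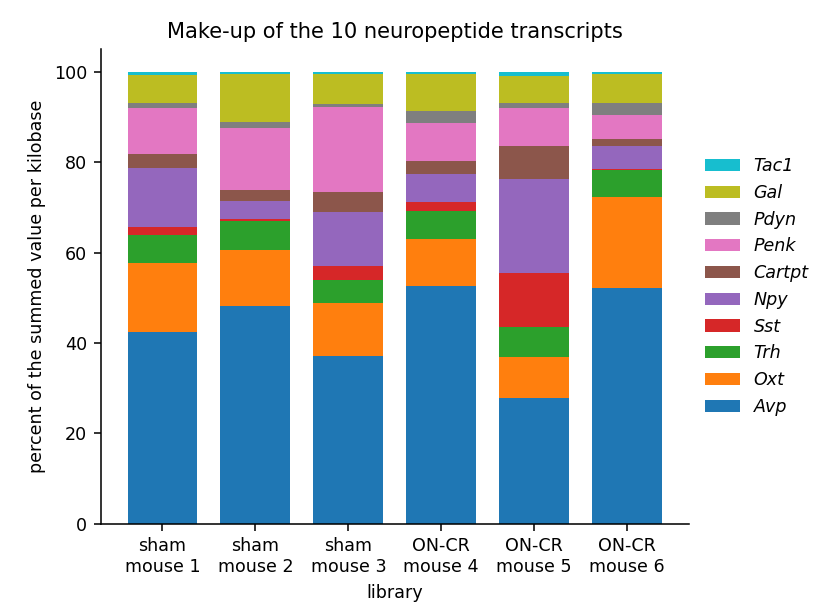
Share of each gene (colours) in the summed normalized value per kilobase of the 10 neuropeptide genes (y axis, percent), 1 bar per library. Avp is the tallest block in every bar, at 27.7% in ON-CR mouse 5 and 37.1% or more elsewhere, and the blocks of Npy and Sst are widest in ON-CR mouse 5.

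Between ON-CR and sham mice the values of all 10 genes overlapped. The values of 21.6% of all genes did not. By limma on log2(value + 1), with Benjamini-Hochberg adjustment over all 25755 genes, 0 of the 10 had an adjusted p at or under 0.05, while 2.10% of all genes did (540, of which 250 were higher and 290 lower). At an unadjusted p under 0.05 the count was 1 of the 10, Pdyn, against 4016 of all 25755 genes. Since the contrast was known when the genes were chosen, nothing is read from these counts.

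The log2 difference of ON-CR minus sham was above 0 for 9 of the 10 genes, with a median of 0.62, and the median over all genes was 0.03. Pdyn had the largest difference, 1.53 (standard error 0.49), and Penk the only one below 0, -0.29 (standard error 0.61). Avp was at 0.64 (standard error 0.50) and Sst at 0.70 (standard error 1.63). The differences changed with the mouse left out. Without ON-CR mouse 5, 7 of the 10 were below 0 and the median was -0.40. Without ON-CR mouse 4, all 10 were above 0, the median was 1.42 and Pdyn, at 2.10, had an adjusted p of 0.0296 by limma. Leaving out sham mouse 2 put 3 below 0. With single mice left out, Avp ranged from 0.19 to 1.26 and Oxt from 0.03 to 1.47, both lowest without ON-CR mouse 5, and Pdyn from 1.2 to 2.1, at 1.23 without ON-CR mouse 5.

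**Figure D4:**
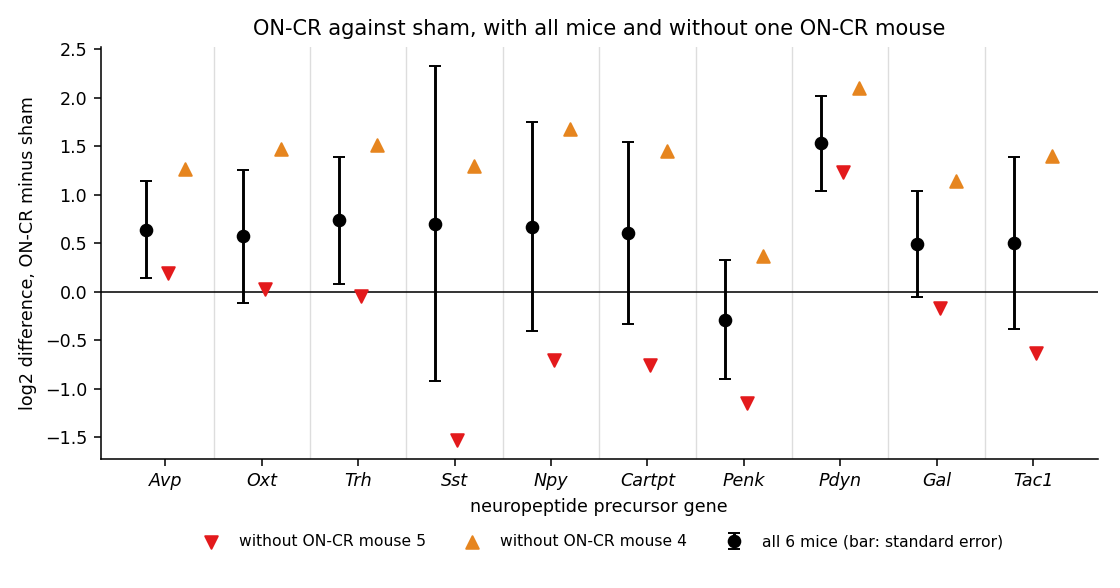
Log2 difference of ON-CR minus sham on value + 1 (y axis) for each of the 10 genes; black circles with standard error bars use all 6 mice, red triangles leave out ON-CR mouse 5 and orange triangles ON-CR mouse 4. All 10 orange points lie above 0, and 7 of the 10 red points lie below it.

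Markers of other tissue were read beside these genes. The 11 brain neuron markers in the table (of 12 listed, such as Snap25, Stmn2 and Syp) summed to 5561, 2375 and 1823 in the sham nerves, against 1887, 12049 and 3294 in the crushed nerves, and all 11 were highest in ON-CR mouse 5. The 14 markers of hypothalamus and preoptic area in the table (of 15; highest were Baiap3, Six6 and Hdc) summed to 528 to 982 in sham and 472 to 1758 in ON-CR mice, again highest in ON-CR mouse 5, as were 11 of the 14 genes. None of the listed markers of any cell type was at 0 in all libraries, although Bsx and Nr5a1, transcription factors of hypothalamic neurons, were at 0 in sham mouse 2 and in ON-CR mice 4 and 6. Both were low elsewhere too, at 1 estimated read each in sham mouse 3 and at 11 and 22 in ON-CR mouse 5, their highest library. The other markers of hypothalamus and preoptic area in the table had reads in every library, so the list as a whole was not absent from any. Retinal ganglion cell and axon markers (8 of 10 in the table, led by Nefl, Sncg and Thy1) summed to 879 to 1474 in sham and 1059 to 3161 in ON-CR mice. The 3161 was that of ON-CR mouse 5, where Nefl alone was at 1666. ON-CR mice 4 and 6, at 1100 and 1059, lay within the sham range. Of the 8 genes, 4 were highest in ON-CR mouse 5, and Sncg was highest in sham mouse 1. Markers of striatal neurons (7 of 7, led by Ppp1r1b, Rgs9 and Adora2a) summed to 1123 to 1323 and 577 to 923, with every ON-CR library below every sham one. Those of sympathetic neurons (4 of 7, led by Ddc, Slc18a2 and Th) summed to 764 to 842 and 497 to 1135. Their part in the levels of the neuropeptide genes was not tested.

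When each library was divided by its summed brain neuron markers, a scaling chosen after the values were seen, the range over libraries became narrower for all 10 genes. The 10 genes and all 11 markers were highest in ON-CR mouse 5 before the division, so a narrower range was favoured in advance. How many of all genes became narrower was not counted, and nothing is read from the count of 10. Trh went from 8.70-fold to 1.66-fold, Gal from 6.24-fold to 1.55-fold, Tac1 from 18-fold to 2.82-fold and Cartpt from 22-fold to 3.89-fold. Sst still ranged over 86.8-fold and Npy over 6.86-fold. On this scale ON-CR mouse 5 was highest for Sst, Npy, Cartpt and Tac1, which is 4 of the 10, and ON-CR mouse 6 for Avp, Oxt, Trh, Pdyn and Gal. Avp, per 1000 units of neuronal markers, was at 137, 135 and 165 in the sham nerves, against 145, 101.1 and 251 in the crushed nerves. Penk was at 94.1, 108 and 236 in the sham nerves, against 66.6, 86.8 and 72.5 in the crushed nerves, so its groups no longer overlapped. After this scaling the groups did not overlap, with ON-CR lower, for 1.74% of all genes, and for 2.24% in either direction.

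**Figure D5:**
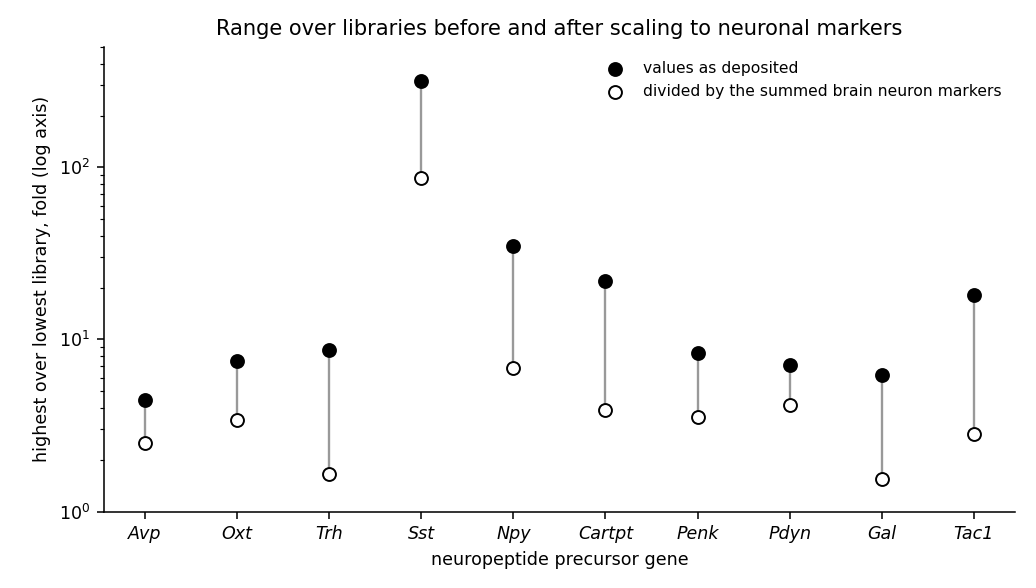
Highest over lowest library (fold, log axis) for each of the 10 genes, with values as deposited (filled circles) and after division by the summed brain neuron markers of the library (open circles). Every open circle lies below its filled one; Trh goes from 8.70 to 1.66, and the lowest Sst value rests on 2 reads.

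Pituitary markers were also present and followed another order. Their sum (7 genes, led by Cga, Gh and Tshb) was 6112, 1860 and 5082 in the sham nerves, against 2378, 3910 and 1167 in the crushed nerves. Cga, which encodes the common subunit of the glycoprotein hormones, was highest in sham mouse 1 at 5733 and lowest in ON-CR mouse 4 at 32.8, and Gh, growth hormone, was highest in ON-CR mouse 4 at 2203. None of the 7 was highest in ON-CR mouse 5. Airway epithelium markers (6 of 7 in the table, led by Bpifa1, Bpifb1 and Sec14l3) summed to 82.7 to 7894 in sham and 120 to 6216 in ON-CR mice, and were high in sham mouse 3 and in ON-CR mice 5 and 6.

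Of the glial genes, Mbp was lower after ON-CR, at 389019 ± 22111 against 1058870 ± 240939 for sham (SD, n = 3 each, adjusted p = 0.0117 by limma), and the microglial gene Cx3cr1 was at 4048 ± 1173 against 2410 ± 429 (adjusted p = 0.128 by limma), with overlapping groups. Oligodendrocyte precursor markers (6 of 6, led by Ptprz1, Olig1 and Pdgfra) summed to 9789 to 10820 in sham and 9618 to 10852 in ON-CR mice, astrocyte markers (8 of 8, led by Gfap, Aldoc and Gja1) to 220707 to 272482 and 285097 to 316434, and meningeal fibroblast markers (7 of 7, led by Fmod, Slc6a13 and Col1a2) to 31972 to 37827 and 21027 to 32180. None of these 3 sums was highest in ON-CR mouse 5, and their part in the levels of the neuropeptide genes was not tested. The astrocyte markers did not move together, and 4 of the 8 had a log2 difference above 0. Gfap was at 179241 ± 23260 after ON-CR against 114862 ± 13595 for sham. Aldoc was at 29147 ± 4361 against 44926 ± 7836, and Gja1 at 20257 ± 3201 against 24750 ± 1408 (SD, n = 3 each).

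Other genes of the peptide system were counted from lists. Of 26 further precursor genes in the table (40 listed), 1 passed the test, beside 2.10% of all genes. It was Apln, which was lower in ON-CR by 1.13 on the log2 scale (standard error 0.18, adjusted p = 0.0123 by limma). This gene lies on the X chromosome, and sex-linked transcripts differed with the group, so surgery and sex cannot be told apart for it. Apln encodes apelin, a peptide of the vasculature; its values were 471, 495 and 332 in the sham nerves, against 204, 191 and 189 in the crushed nerves. Its adjusted p was above 0.05 without sham mouse 1, sham mouse 2 or ON-CR mouse 6 (0.0704, 0.0912 and 0.103 by limma), within a range of 0.00519 to 0.103 over the alternatives. Highest in mean value on this list was Pomc, the precursor of ACTH and of melanocyte-stimulating and opioid peptides of pituitary and arcuate cells, at 612, 69.9 and 4375 in the sham nerves, against 36.9, 1368 and 53.0 in the crushed nerves. Adm, encoding adrenomedullin, was at 218 to 399.8 in all libraries. Vip, chosen after its values were seen, was highest in sham mouse 1, at 669, and at 131 in ON-CR mouse 5, unlike the 10 genes above. ON-CR mouse 5 was the highest library for 10 of these 26 genes.

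Of 21 neuropeptide receptor genes in the table (26 listed), 0 passed the limma test at an adjusted p at or under 0.05 (2 had an unadjusted p under 0.05, both lower), and 16 were highest in ON-CR mouse 5. Npy1r, a receptor for neuropeptide Y, had the highest mean value of the list, at 287, 206 and 324 in the sham nerves, against 180.5, 216 and 164 in the crushed nerves, and its highest library was sham mouse 3. Oprl1, the nociceptin receptor, was at 258, 94.7 and 73.3 in the sham nerves, against 60.8, 408 and 118 in the crushed nerves, with the same highest and lowest library as Avp. Sstr1, a somatostatin receptor, ranged from 74.8 to 159, with its highest value in ON-CR mouse 5. Of 15 genes for precursor processing and granins, 0 passed it (5 had an unadjusted p under 0.05, 1 higher and 4 lower), and 6 were highest in ON-CR mouse 5. Beside both lists, 4016 of all 25755 genes had an unadjusted p under 0.05 by limma, and 20.6% were highest in ON-CR mouse 5. Cpe, encoding the carboxypeptidase that trims peptide ends, was at 3129 to 8860. Chga, encoding chromogranin A of dense-core granules, was at 11056, 4198 and 8738 in the sham nerves, against 192, 8259 and 1715 in the crushed nerves. Scg3, encoding a secretogranin, was at 3420 to 5677, with every ON-CR mouse above every sham mouse but an adjusted p of 0.323 by limma. The groups did not overlap, in either direction, for 21.6% of all genes.

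Likeness over the 6 libraries was described by Pearson's r of log2(value + 1) with the 15941 other genes that reached 50 in some library. Each of the 10 genes had between 88 and 400 others with r over 0.9, or 0.552% to 2.51% of them. With only 6 points, and the closest genes picked from so many, these values of r carry no test. Closest to Avp were B630019K06Rik, Eef1e1 and Rasgrp1 (r = 0.986, 0.984 and 0.983), and to Oxt 4930524O07Rik, Pcdhb22 and Fbxo25 (0.990, 0.985 and 0.984). Trh was followed most closely by Nptxr, Mllt11 and Gm44831 (0.998, 0.996 and 0.995), and Sst by Dnal1, Gm26771 and Mapk12 (0.998, 0.997 and 0.990). For Npy these were Pak6, Fbxo3 and B830012L14Rik (0.994, 0.991 and 0.990), and for Cartpt Mbd1, Gm10862 and Gm19938 (0.994, 0.993 and 0.991). Penk was nearest to Kcnk9, Ppp1r26 and Lin7a (0.996, 0.989 and 0.986) and Pdyn to Ssb, Gng4 and Rps21 (0.997, 0.995 and 0.993). Gal was nearest to Rab9b, Lhfpl5 and Mycbpap (1.00, 0.995 and 0.992), and Tac1 to Pcsk2, which encodes a convertase that cuts neuropeptide precursors, Ly6h and Eif4a2 (0.994, 0.994 and 0.993). Gal and Rab9b had r = 1.00 also without ON-CR mouse 5.

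Promoter windows of RefSeq (GRCm38.p6, 250 bases before to 50 after the start) were held for 9 of the 10 genes, all but Penk. The cAMP response element TGACGTCA, which reads the same on both strands and is bound by CREB, occurred in 2 of these 9, Sst and Cartpt, and in 3.05% of the 14328 genes of the table with a window. Its shorter form, TGACG on either strand, which the full element contains, occurred in 5 of the 9 (also in Trh, Gal and Tac1) and in 31.1% of those genes. The windows of the full element are shown for Sst and Cartpt, the 2 genes that hold it, with the element in capitals, read along the gene's strand. That of Sst is at chr16:23890874-23890903 and that of Cartpt at chr13:99900777-99900806, both on the minus strand.
Sst: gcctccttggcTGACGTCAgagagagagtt
Cartpt: ccggcgggcatTGACGTCAaacggcagcgg
The element begins 48 bases before the RefSeq start of Sst and 112 bases before that of Cartpt. The 2 sources place the starts differently. By the GENCODE positions given above, which reach to 23890958 for Sst and 99901091 for Cartpt, both elements lie inside the gene. Such a match describes letters in a window and not a site in use.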

How the data were processed

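RNA from optic nerves of 3 sham and 3 ON-CR mice (10 ng per library, amplified with a SMARTer low-input kit) was sequenced in bulk. According to the methods and the submitters' processing notes, the authors aligned and quantified reads with Illumina DRAGEN against mm10 and median-normalized gene counts in Partek Flow 10.0. The deposited values are therefore a normalized signal per gene and not raw counts. Division by the value of 1 read, taken as the most frequent low value of a library, gave whole reads (within 0.02) for 64.9% to 71.2% of values, so no count model was run and the reads served only for depth, counting intervals and a floor of 3 reads. Intervals and floors cover counting error only.

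The test was limma 3.58.1 (R 4.3.3), run on log2(value + 1) with a mean trend and Benjamini-Hochberg adjustment over 25755 genes, after a test on simulated data. The log2 scale with a pseudocount of 1 understates changes of low genes. With 3 mice against 3, no exact permutation p can fall below 0.1. Labels name 1 mouse per library, so n counts libraries. The methods describe samples of 2 mice each for quantitative PCR, and for sequencing the number of mice per sample is not given in the sources used here. The 10 genes, the gene lists and the tests were chosen with earlier results of these data known. Genes named were the 10, those of each peptide list that passed the test and its 3 with the highest mean, the 3 marker genes of each reported list with the highest mean, and the 3 genes most like each of the 10; Vip, Bsx, Nr5a1, Xist and Ddx3y were added after their values were seen. Exon lengths and positions are from GENCODE M21 on GRCm38 (97.2% of symbols matched, and all 10 genes), and promoters from RefSeq. Alternatives were other pseudocounts (0.1 and 2), a minimum mean of 10, 2 other scalings, a robust fit, sample quality weights and leaving out each mouse. Scaling to neuronal markers and the alternatives for the spread and for the highest library were chosen after seeing the data. Results of some marker genes and lists are not reported here.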

Additional observations from a re-analysis of the deposited data

How the results depend on the processing

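No paired analysis was possible because mice carry different numbers in the 2 groups. The count of genes called, 540, ranged from 67 to 854 when single mice were left out (67 without ON-CR mouse 6, 123 without sham mouse 2, 192 without sham mouse 1, 258 without sham mouse 3 and 854 without ON-CR mouse 5). Scaling to library totals moved the median log2 difference of all genes from 0.03 to 0.15 and the share of calls that were higher in ON-CR from 46.3% to 68.3%; without ON-CR mouse 4 that share was 29.7%, without sham mouse 2 it was 63.4%, and without ON-CR mice 5 or 6 it was 57.3% or 58.2%. Of the 10 neuropeptide genes 0 were called in every alternative except without ON-CR mouse 4, which called 1, Pdyn. Of the other peptide lists 1 gene was called, 3 with sample quality weights, and 0 to 5 with a mouse left out. The number of the 10 highest in ON-CR mouse 5 was 10 under both other scalings and 4 after division by neuronal markers. Their median spread was 2.26 to 3.08 with each mouse left out and 1.79 after that division.

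When single mice were left out, the log2 difference ranged from -0.0468 to 1.51 for Trh, -1.53 to 2.34 for Sst, -0.704 to 1.68 for Npy, -0.762 to 1.45 for Cartpt, -0.169 to 1.14 for Gal and -0.635 to 1.40 for Tac1, each negative without ON-CR mouse 5; without sham mouse 2, Sst was at -0.304 and Npy at -0.16. Penk ranged from -1.15 to 0.371, positive without ON-CR mouse 4. Adm, at -0.09 with all mice, was at 0.0399 with library totals, 0.00354 with sample quality weights, 0.0328 without sham mouse 3 and 0.105 without ON-CR mouse 5, and its lowest value was -0.331. Oprl1, at 0.24 with all mice, was at -0.0202 with sample quality weights, -0.124 without sham mouse 3 and -0.512 without ON-CR mouse 5, and its highest value was 0.85. Chga was called lower (-3.68) without ON-CR mouse 5. The cause of these changes was not tested. Sst rested on few reads in ON-CR mouse 6 and sham mouse 2, at 2 and 4, although sham mouse 2 was the deepest library, with 23620019 estimated reads.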
